A study of Mus musculus with 12 samples.

Results

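Myeloid C-type lectin receptors are a group of 10 mouse genes, Clec4d, Clec4e, Clec4n, Clec4b1, Clec4a1, Clec4a3, Clec7a, Clec10a, Clec12a and Cd209a. They were taken as a list of names, and every non-control probe carrying one of these gene names on the array was included, which gave 12 probes of 55681. Of the 10 genes, 9 had a probe bright enough to enter the tests, among 18545 genes tested, and Clec12a did not. RNA of sorted splenic regulatory T cells (Treg, the Foxp3-dependent CD4 T cells that restrain immune responses) was measured on 12 arrays, each with 1 dye, in a study of the surface protein CD83 in these cells.

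The 4 groups held 3 arrays each, and all came from female C57BL/6 mice. KO at 0 h was non-activated Treg of CD83cKO mice, a conditional knockout for which no Cre driver is named. WT at 0 h was non-activated Treg of CD83 wild-type mice. The KO and WT groups at 3 h were Treg of the same genotypes after 3 h of exposure to anti-CD3 and anti-CD28 antibodies, which stimulate through the T cell receptor and its co-receptor. WT mice were 9 weeks old. KO mice were 10 weeks old on 4 arrays and 21 weeks old on 2, replicate 3 at 0 h and replicate 3 at 3 h. The study lists 6 mice for the 12 arrays and ties no array to a mouse, so arrays of the same genotype can share an animal, and the p-values treat all arrays as independent. All 6 KO arrays lay on 1 slide, WT at 0 h on another and WT at 3 h on the remaining one, and in any comparison of KO with WT the genotype and the slide cannot be told apart.

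C-type lectin receptors are surface proteins of macrophages, monocytes, dendritic cells and neutrophils that bind sugars and lipids of microbes or of damaged cells. Activating members signal through an ITAM motif, either their own, as in Clec7a, or that of the partner chain FcRγ (gene Fcer1g), which recruits the kinase Syk and the adaptor Card9 and switches on cytokine genes. Inhibitory members carry an ITIM motif that recruits phosphatases such as Ptpn6. T cells are not known as a main source of these receptors.

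A cluster on mouse chromosome 6 holds 6 of the receptor genes side by side. On the mm9 build of the array design, their probes spanned chr6:122884578-123232937, or 348.36 kb, in the order Clec4a1, Clec4a3, Clec4b1, Clec4n, Clec4d and Clec4e. The Clec7a probe (chr6:129411739-129411798) and the Clec12a probe (chr6:129314880-129314939) lay further along the same chromosome. The Clec10a probe was at chr11:69984254-69984313, and the Cd209a probes were at chr8:3743481-3743540 and within chr8:3747664-3748335. Clec4b1 and Cd209a each had 2 probes, and 3 of these 4 are printed because the probes of a gene differed in the arrays that detected them. The 2 Clec4b1 probes share no run longer than 7 bases. One, at position 198 of its transcript, was drawn across an exon junction, within chr6:123000666-123018461 on the plus strand. The other, at position 289 of another transcript variant, matched chr6:123015995-123016054 on the plus strand. The Cd209a probe at position 289 of its transcript, on the minus strand, is shown because it passed the background limit on 1 array only.
Clec4b1, probe at position 198: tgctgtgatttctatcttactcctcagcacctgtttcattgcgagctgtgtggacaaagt
Clec4b1, probe at position 289: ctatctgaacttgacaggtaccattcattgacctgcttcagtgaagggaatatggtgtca
Cd209a, probe at position 289: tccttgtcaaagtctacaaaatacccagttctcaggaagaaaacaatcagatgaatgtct

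The promoters below are shown for the pairs Clec4d with Clec4e and Clec4a1 with Clec4a3, each with the same order of its 4 group means in both genes, and for Cd209a, which shares the order of Clec4a1 and Clec4a3. Each is the 250 bases before a gene's start, written on the gene's own strand, from RefSeq on build GRCm38.p6. The Clec4d stretch is chr6:123261857-123262106 (plus strand) and the Clec4e stretch chr6:123289872-123290121 (minus strand). The Clec4a1 stretch is chr6:122921598-122921847 (plus strand) and the Clec4a3 stretch, the later of its 2 listed starts, chr6:122952394-122952643 (plus strand). The Cd209a stretch is chr8:3748985-3749234 (minus strand). This Clec4a3 stretch was chosen because it holds a match to the motif below, and the stretch before the other listed start holds 0. Capitals mark GAGGAA or its reverse complement, the core of sites for PU.1 (gene Spi1), a transcription factor of myeloid cells.
Clec4d: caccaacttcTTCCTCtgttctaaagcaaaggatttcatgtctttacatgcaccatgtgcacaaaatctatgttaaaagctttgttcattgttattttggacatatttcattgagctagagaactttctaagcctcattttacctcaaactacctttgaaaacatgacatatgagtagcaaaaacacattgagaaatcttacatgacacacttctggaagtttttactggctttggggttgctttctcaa
Clec4e: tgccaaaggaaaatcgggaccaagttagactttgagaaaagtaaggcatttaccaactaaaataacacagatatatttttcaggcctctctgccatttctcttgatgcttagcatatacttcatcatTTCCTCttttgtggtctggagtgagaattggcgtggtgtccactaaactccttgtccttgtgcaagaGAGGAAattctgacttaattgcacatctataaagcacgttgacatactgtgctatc
Clec4a1: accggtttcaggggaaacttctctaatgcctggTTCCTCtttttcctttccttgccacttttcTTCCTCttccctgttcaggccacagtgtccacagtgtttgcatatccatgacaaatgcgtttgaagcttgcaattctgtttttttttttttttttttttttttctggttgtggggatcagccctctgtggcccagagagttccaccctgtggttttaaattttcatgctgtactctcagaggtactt
Clec4a3: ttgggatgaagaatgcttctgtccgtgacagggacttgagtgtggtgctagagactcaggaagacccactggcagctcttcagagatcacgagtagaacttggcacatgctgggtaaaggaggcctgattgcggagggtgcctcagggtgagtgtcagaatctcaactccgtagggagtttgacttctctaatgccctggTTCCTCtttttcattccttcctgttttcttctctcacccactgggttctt
Cd209a: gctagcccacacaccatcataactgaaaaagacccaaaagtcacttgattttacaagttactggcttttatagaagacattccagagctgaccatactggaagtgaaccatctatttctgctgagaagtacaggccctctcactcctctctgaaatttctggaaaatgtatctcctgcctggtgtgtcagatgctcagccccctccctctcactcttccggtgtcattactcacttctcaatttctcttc

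RefSeq promoters were matched for 8 of the 10 genes by symbol, in 10 entries, and Clec4n and Clec10a had no entry. GAGGAA on either strand was present in 8 of the 10 entries, in 7 of the 8 genes, against 23.3% of 32851 promoter entries of the same length. Cd209a was the gene without it. The 2 Clec7a entries overlap and hold the same match, and the 2 Clec4a3 entries also overlap, so the entries are not independent. A gene was counted if any of its entries held the motif, while the share over all promoters is per entry. TTGCNNAA, the core of C/EBP sites, was found in 2 of the 8 genes (Clec4e and Clec12a), against 9.56% of all entries, and TGANTCA, the core of AP-1 sites, in 1 (Clec12a), against 6.75%. In these entries no match to 1 motif overlapped a match to another. These are matches of letters and do not show that a factor binds.

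Across the 12 arrays, 42.9% to 54.6% of probes were well above background, and the 75th percentile of intensity ran from 164.6 to 324 units, lowest on the 2 arrays of 21-week mice (180.9 and 164.6). Values below are normalized log2 signals, the log2 of the background-subtracted signal minus that array's 75th percentile, taken among the 19799 probes detected on every array, so 0 marks that percentile. Levels of different probes are not comparable, and only differences within a gene are given. Cd83, the targeted gene, had 0.75, 0.29 and 0.23 on the KO arrays at 0 h, against 2.36, 2.17 and 2.39 on the WT arrays. After 3 h Cd83 had 1.06, 1.07 and 1.92 on the KO arrays, against 4.21, 3.69 and 3.65 on the WT arrays. Every KO array lay below every WT array at both times, with a log2 difference of -1.88 ± 0.26 (standard error) at 0 h and -2.50 ± 0.26 at 3 h (limma, adjusted p = 0.0089 and 0.0023). The sources used here do not give which exons the knockout removes. Of 10 T cell markers (Cd3d, Cd3e, Cd3g, Cd4 and others), all 10 were well above background on all arrays of each group. The array's only Foxp3 probe, for the gene that defines Treg, was detected well above background on every KO array (6 of 6) and on none of the WT arrays (0 of 6), with values of -6.27, -6.04 and -2.86 in KO at 0 h against -8.63, -9.06 and -9.42 in WT at 0 h. The other 9 of 10 Treg markers were well above background on all arrays of each group.

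Both arrays of 21-week KO mice differed from the other KO arrays. The mean of 4 plasma cell markers was 3.49 on the 21-week array at 0 h, against -0.36 and -0.33 on the 10-week arrays, and 4.09 at 3 h, against -1.49 and 0.13. On the 21-week arrays the 10 T cell markers averaged 2.00 at 0 h and 1.16 at 3 h, against 3.31 to 3.57 on the other KO arrays. For 5 of the 9 receptors at 0 h and 8 of 9 at 3 h, the 21-week array was the highest of its 3, with a median difference from the mean of the other 2 of 1.33 at 0 h and 1.50 at 3 h. The counts of receptors called are therefore also given without both of these arrays, and those of the other gene lists where they differ. That fit called more of all genes for KO against WT, 6.63% at 0 h and 1.98% at 3 h, against 2.08% and 1.45%. For stimulation it called 46.2% in KO and 55.8% in WT, against 17.2% and 29.9%, and its counts stand beside these shares.

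Of the myeloid lectin receptors, 5 of 9 rose in KO Treg preparations at each time and no receptor fell. At 0 h, 5 of the 9 tested receptors rose (Clec4d, Clec4n, Clec4a1, Clec4a3 and Clec7a) and none fell, where 1.82% of all genes tested rose and 0.259% fell (limma, adjusted p under 0.05). At 3 h, 5 of 9 rose (Clec4n, Clec4b1, Clec4a1, Clec4a3 and Clec7a) and none fell, where 1.26% of all genes rose and 0.189% fell. Clec4n, Clec4a1, Clec4a3 and Clec7a passed the test at both times. Clec4e entered the tests only through KO at 3 h, the group where it was brightest, so its part in the counts and medians over 9 receptors is a description. The median log2 difference over the 9 receptors was 2.56 at 0 h and 2.58 at 3 h, against -0.03 and 0.04 over all genes. With receptors at their lower bound where WT was not above background, the median was 2.26 over 9 receptors at 0 h and 2.42 over 8 at 3 h.

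The groups were apart in nearly every case. For 8 of 9 receptors at 0 h, every KO array lay above every WT array, which held for 16.9% of all genes, and for none were the KO arrays all below, which held for 14.8%. At 3 h this was so for 9 of 9 receptors, against 11.8% of all genes above and 7.38% below. The 9 include Cd209a, which was not well above background on any array at 3 h, and the undetected Clec12a had the same order of arrays, so at background this order is no result about a receptor. At an unadjusted p under 0.05, 9 receptors at 0 h and 7 at 3 h would pass. Without both 21-week arrays 6 receptors rose at 0 h, with Clec10a added, and 5 at 3 h, where 6.63% and 1.98% of all genes were called.

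The count at 0 h depended on single arrays. It was 0 without WT replicate 1 or without WT replicate 3 at 0 h (limma, with 9 receptors at an unadjusted p under 0.05 in each of these fits), 3 without WT replicate 2, and 1, 3 and 2 without KO replicates 1, 2 and 3 at 0 h. It was 8 without KO replicate 3 at 3 h, which enters only through the shared estimate of spread. The share of all genes called at 0 h also moved, from 2.08% in the main fit. It was 0.437%, 1.59% and 0.464% without WT replicates 1, 2 and 3 at 0 h. Without KO replicates 1, 2 and 3 at 0 h it was 1.08%, 0.971% and 1.15%, and without KO replicate 3 at 3 h 5.91%. At 3 h the count was 3 without WT replicate 1 or 3 at 0 h or without any of the 3 WT arrays at 3 h, and Clec4a3, Clec4b1 and Clec4n passed in each of these fits. The same fits called 0.701% to 1.19% of all genes, against 1.45% in the main fit. The signs of all 9 differences at both times were the same in every fit that left out 1 array. Fitted on the 6 arrays of a time alone, without the other 6 arrays in the estimate of spread, 3 receptors rose at 0 h and none at 3 h (8 at an unadjusted p under 0.05). Of all genes, 2.07% passed at 0 h and none at 3 h. In bulk RNA, fewer cells of a type and less RNA per cell cannot be told apart.

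**Figure D1:**
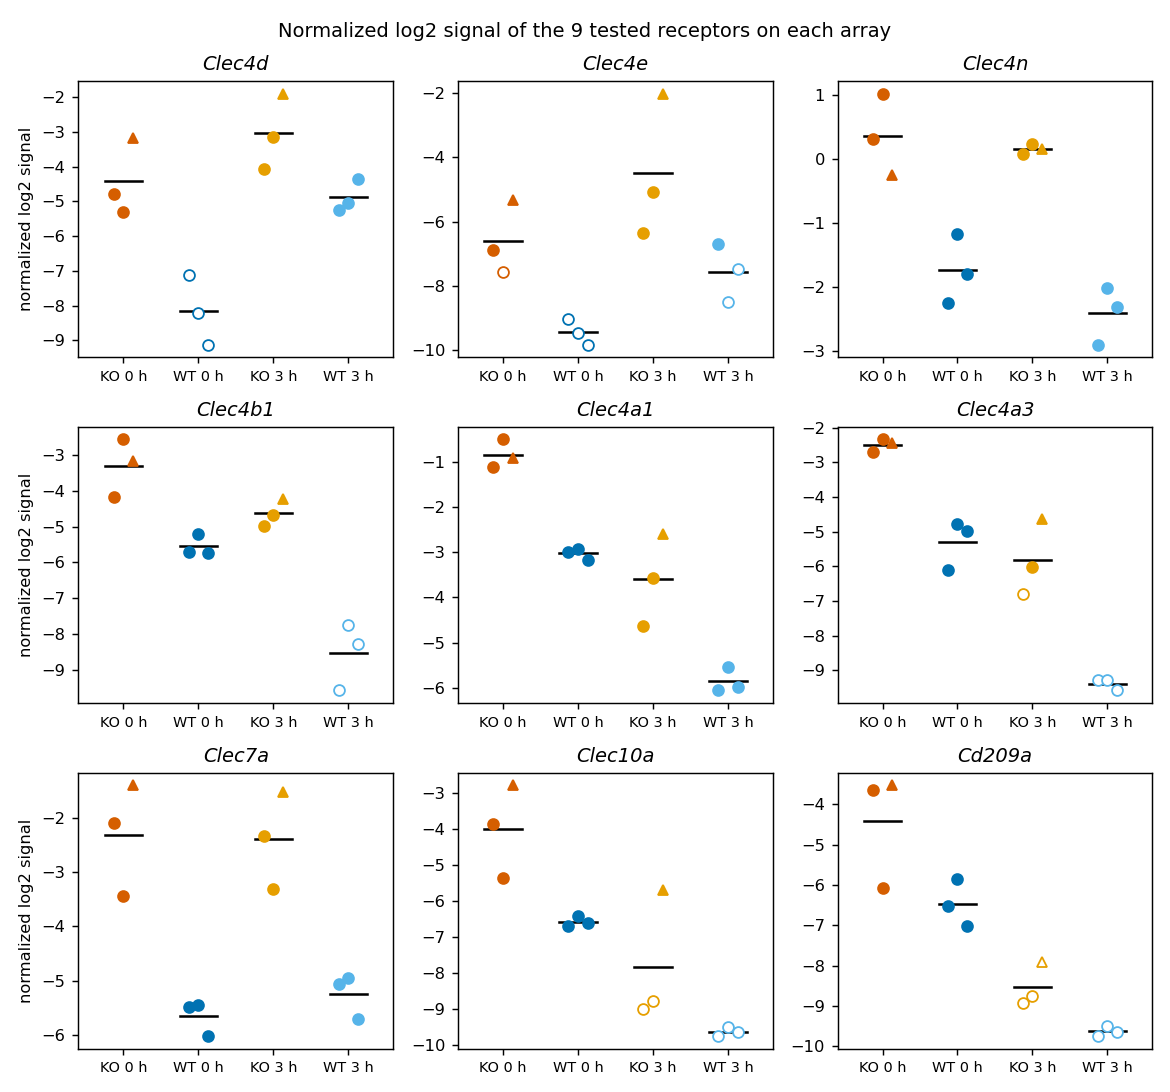
Normalized log2 signal (vertical axis) of the 9 tested receptors on each array, by group (horizontal axis, each KO group left of its WT group). Filled symbols are well above background and open symbols are not, triangles are arrays of 21-week mice, and bars are group means over 3 arrays. All 3 KO points lie above all 3 WT points for 8 receptors at 0 h and for 9 at 3 h, Cd209a at 0 h being the exception. Cd209a has only open symbols at 3 h.

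Clec4d and Clec4e are neighbours at the end of the cluster that bind lipids of mycobacterial walls and signal through FcRγ. Clec4e is known as Mincle and Clec4d as MCL. Clec4d had -4.79, -5.30 and -3.18 in KO at 0 h, all well above background, against -7.11, -8.22 and -9.13 in WT at 0 h, none of them above background. It was the only one of the 12 receptor probes detected in this way at 0 h, on 3 of 3 KO and 0 of 3 WT arrays, a pattern of 0.749% of all probes. The group means were -4.42 ± 1.11 in KO and -8.15 ± 1.01 in WT (SD, 3 arrays each), so Clec4d was at least 7.19-fold higher in KO at 0 h (limma, adjusted p = 0.0273). Such a lower bound sets the mean of the brighter group against, on each array of the dimmer group, whichever is higher, the lowest detected signal of that array or the signal of the probe itself. The call was lost without KO replicate 1 or 3, or without any of the 3 WT arrays at 0 h, with an adjusted p of up to 0.128 and a difference of 3.11 to 4.25.

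At 3 h, Clec4d had -4.08, -3.14 and -1.90 in KO against -5.24, -5.04 and -4.35 in WT, all 6 well above background. The KO values lay above the WT values by 1.84 ± 0.71, which did not pass the test (adjusted p = 0.386). Clec4e had -6.88, -7.56 and -5.32 in KO at 0 h, 2 of 3 well above background, against -9.03, -9.46 and -9.83 in WT, with 0 of 3. Clec4e at 3 h had -6.34, -5.09 and -2.02 in KO, all well above background, against -6.70, -8.50 and -7.48 in WT, where only the first was. Every KO array was above every WT array at both times, but the KO values spread widely, and the differences of 2.85 ± 0.99 and 3.08 ± 0.99 did not pass (adjusted p = 0.202 and 0.259). The highest KO value of both genes at each time was that of the 21-week array.

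Clec7a (Dectin-1) and Clec4n (Dectin-2) are receptors for fungal cell walls, binding β-glucans and mannans. Both were well above background on all 12 arrays, so both have measured folds. Clec7a had -2.09, -3.44 and -1.40 in KO at 0 h against -5.49, -5.45 and -6.02 in WT, and -2.33, -3.31 and -1.52 in KO at 3 h against -5.06, -4.96 and -5.71 in WT. The lowest KO value stood well clear of the highest WT value at both times. Clec7a rose by 3.34 ± 0.55 at 0 h, or 10.2-fold (adjusted p = 0.0153), and by 2.85 ± 0.55 at 3 h, or 7.23-fold (adjusted p = 0.0344). The call at 0 h was lost without KO replicate 1 or WT replicate 1 or 3 at 0 h (adjusted p up to 0.0828). The call at 3 h was lost in 9 of the 12 fits that left out 1 array, those without KO replicate 1, 3 or any WT array at 3 h, KO replicate 1 or any WT array at 0 h (adjusted p up to 0.153, difference 2.42 to 3.32).

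Clec4n had 0.32, 1.03 and -0.25 in KO at 0 h against -2.25, -1.18 and -1.80 in WT. After stimulation for 3 h it had 0.09, 0.24 and 0.17 in KO against -2.90, -2.02 and -2.31 in WT, and the 3 KO arrays were closer together than those of any other receptor or group. Clec4n rose by 2.11 ± 0.37 at 0 h, or 4.31-fold (adjusted p = 0.0199), and by 2.58 ± 0.37 at 3 h, or 5.97-fold (adjusted p = 0.0072). Its 21-week array was the lowest of the 3 at 0 h and lay between the other 2 at 3 h. The call at 3 h held in all 12 fits that left out 1 array, and the call at 0 h was lost without KO replicate 1 or 2, or WT replicate 1 or 3, at 0 h (adjusted p up to 0.0975).

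Clec4a1, Clec4a3 and Clec4b1 belong to the DCIR and DCAR family of dendritic cells and monocytes. Some DCIR forms, though not all, are known for inhibitory signals, and DCAR forms pair with FcRγ. Which signals these genes give here was not tested. Clec4a1 had -1.11, -0.50 and -0.90 in KO at 0 h against -2.99, -2.93 and -3.16 in WT, and -4.63, -3.57 and -2.60 in KO at 3 h against -6.06, -5.54 and -5.98 in WT. It was measured on all 12 arrays and rose by 2.19 ± 0.42 at 0 h, or 4.56-fold (adjusted p = 0.0282), and by 2.26 ± 0.42 at 3 h, or 4.79-fold (adjusted p = 0.0285). At 0 h the call was lost without any 1 of the 6 arrays at 0 h or WT replicate 3 at 3 h (adjusted p up to 0.128). At 3 h it was lost without KO replicate 2 or any WT array at 3 h, or WT replicate 1 or 3 at 0 h (adjusted p up to 0.135).

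Clec4a3 had -2.70, -2.34 and -2.44 in KO at 0 h against -6.10, -4.78 and -4.97 in WT, with all 6 well above background. The values at 3 h were -6.79, -6.02 and -4.63 in KO, 2 of 3 well above background, against -9.28, -9.29 and -9.58 in WT, with 0 of 3. It rose by 2.79 ± 0.50 at 0 h, or 6.93-fold (adjusted p = 0.0219). At 3 h the means were -5.81 ± 1.09 in KO and -9.38 ± 0.17 in WT (SD, 3 arrays each), at least 3.26-fold higher in KO (adjusted p = 0.0067). The call at 0 h was lost without any KO array or WT replicate 1 or 3 at 0 h (adjusted p up to 0.0954), and the call at 3 h held in all 12 fits.

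The Clec4b1 probe at position 198, the brighter one and the one that stands for the gene, had -4.16, -2.56 and -3.15 in KO at 0 h against -5.72, -5.19 and -5.73 in WT. At 3 h it had -4.98, -4.68 and -4.22 in KO, all well above background, against -9.59, -7.76 and -8.27 in WT, none of them. It was the only receptor probe with 3 of 3 KO and 0 of 3 WT arrays well above background at 3 h, a pattern of 0.0834% of all probes. At 0 h the difference of 2.26 ± 0.50 had an adjusted p of 0.0517. At 3 h, with means of -4.63 ± 0.39 in KO and -8.54 ± 0.94 in WT, Clec4b1 was at least 7.42-fold higher in KO (adjusted p = 0.0047), and this call held in all 12 fits. The probe at position 289 had differences of 2.44 ± 1.00 at 0 h and 2.84 ± 1.00 at 3 h, of the same sign, and passed at neither time (adjusted p = 0.304 and 0.332 over 26261 probes). At 3 h it was well above background on 1 array, the 21-week KO one (-3.87, against -8.91 and -7.41 on the other KO arrays and -9.74 to -9.36 on the WT arrays). The neighbours Clec4a2, Clec4a4 and Clec4b2 in the same cluster are close relatives, and whether their RNA binds these probes was not tested. Their own probes were not well above background on any array.

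Clec10a (a galactose-type lectin) and Cd209a (the mouse relative of human DC-SIGN) take up sugar-bearing ligands and are used as markers of dendritic cells and macrophages. Clec10a had -3.87, -5.37 and -2.78 in KO at 0 h against -6.69, -6.41 and -6.60 in WT, with all 6 well above background. At 3 h it had -8.99, -8.77 and -5.69 in KO, with only the last, the 21-week array, well above background, against -9.75, -9.48 and -9.64 in WT, with none. The KO arrays lay above the WT arrays at both times, and the differences of 2.56 ± 0.83 and 1.81 ± 0.83 did not pass (adjusted p = 0.174 and 0.481). Without both 21-week arrays the difference at 0 h was 1.95 ± 0.37 and passed (adjusted p = 0.0244).

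The Cd209a probe that stands for the gene had -3.64, -6.07 and -3.52 in KO at 0 h against -6.53, -5.84 and -7.02 in WT. KO replicate 2 lay within the WT range, and the difference of 2.05 ± 0.61 did not pass (adjusted p = 0.139). At 3 h it was not well above background on any array of either genotype, with -8.93, -8.74 and -7.91 in KO against -9.75, -9.48 and -9.63 in WT, and no fold is given. Clec12a, an inhibitory receptor known to bind uric acid crystals, was not well above background on any of the 12 arrays, with values of -9.39 to -8.32 in KO and -9.60 to -9.12 in WT.

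**Figure D2:**
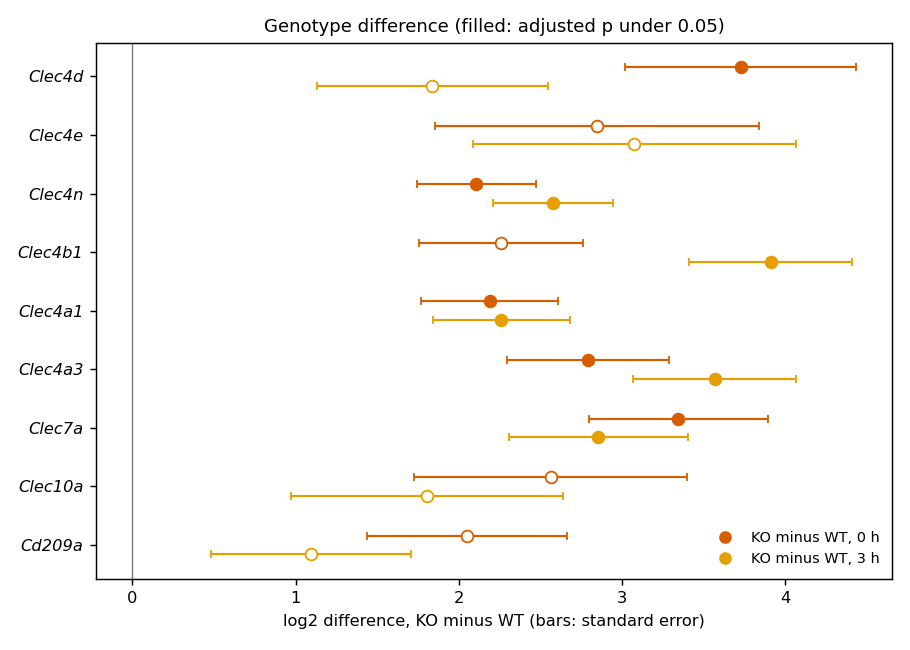
Log2 difference KO minus WT (horizontal axis) of each tested receptor at 0 h and at 3 h, with bars of 1 standard error from the model. Filled points have an adjusted p under 0.05. All 18 points lie to the right of 0, from 1.09 to 3.91, and 5 are filled at each time. Cd209a at 3 h was not well above background in either genotype.

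Markers of other cell types moved with genotype in the same preparations. Of 11 monocyte and macrophage markers, 9 rose in KO at 0 h and 8 at 3 h and none fell, among them Csf1r (2.19 and 2.73), the growth factor receptor of these cells, and the complement gene C1qb (2.18 and 2.42). Their summed level, the sum of linear normalized signals over the 11 markers, was 24.6 to 34.7 on KO arrays and 6.96 to 9.53 on WT arrays at 0 h, and 5.98 to 9.71 on KO arrays and 1.74 to 2.23 on WT arrays at 3 h. None of the 11 markers was below background on every array. Of the 6 tested dendritic cell markers only Itgax rose by the adjusted test, by 3.11 at 0 h and 3.01 at 3 h. At an unadjusted p under 0.05 (limma) 5 would pass at 0 h and 2 at 3 h, with list medians of 1.72 and 1.13. The summed level over 7 dendritic cell markers was 23.9 to 37.9 in KO against 18.4 to 23.5 in WT at 0 h and 19.1 to 28.8 against 17.3 to 22.4 at 3 h. The summed level of the 10 T cell markers was 50.1 to 149 on KO arrays and 173 to 197 on WT arrays at 0 h, and 28.9 to 136 on KO arrays against 125 to 140 on WT arrays at 3 h. The part of these markers in the receptor differences was not tested.

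The remaining marker lists had few calls between genotypes, but most had differences of 1 sign. All tested neutrophil, B cell, plasma cell, NK cell and platelet markers had differences above 0 at both times. Their list medians were 3.16, 1.53, 2.82, 1.07 and 2.92 at 0 h and 1.57, 0.93, 2.10, 0.66 and 1.30 at 3 h. No T cell marker had a difference above 0 at either time, with medians of -0.89 at 0 h and -0.80 at 3 h. Of 4 tested classical monocyte markers, Fn1 rose at 0 h (4.20) and none at 3 h. Of 7 erythroid markers, Tfrc rose at 0 h (1.70) and none at 3 h, and at an unadjusted p under 0.05 (limma) 7 would pass at 0 h and 0 at 3 h. All 7 had differences above 0 at both times, with a median of 2.95 at 0 h and 1.64 at 3 h. None of the 10 T cell, 3 neutrophil, 7 B cell, 4 plasma cell, 7 NK cell and 3 platelet markers tested passed at either time with limma. At an unadjusted p under 0.05, 0, 0, 4, 2, 1 and 3 of these would at 0 h and 0, 0, 0, 0, 0 and 1 at 3 h. The KO arrays differed widely in neutrophil markers. The summed level over 8 such markers was 0.54 to 57.7 on KO arrays at 0 h, against 0.14 to 0.39 on WT arrays. At 3 h it was 0.12 to 18.4 on KO arrays, against 0.14 to 0.48 on WT arrays. Of 10 Treg markers, none passed at 0 h (3 at an unadjusted p under 0.05), and at 3 h the Foxp3 probe alone passed, higher in KO. That probe entered the tests only through the KO groups and was well above background on no WT array, so its call is a description. Only 1 of the 10 Treg differences was above 0 at each time, with medians of -1.35 at 0 h and -1.12 at 3 h. Without both 21-week arrays, 3 of 10 T cell markers fell and 1 plasma cell marker rose in KO at 0 h. Of the 10 Treg markers, 1 then rose and 5 fell at 0 h, and 1 rose and 1 fell at 3 h. Of the 11 monocyte and macrophage markers, 9 then rose at 0 h and 7 at 3 h. That fit called 6.63% of all genes at 0 h and 1.98% at 3 h.

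**Figure D3:**
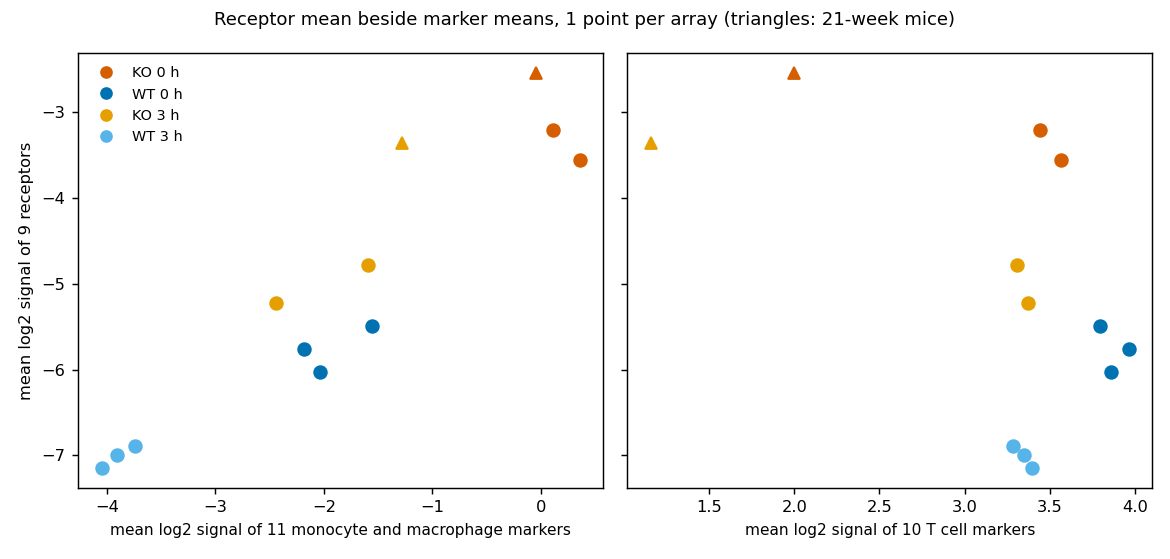
Mean normalized log2 signal of the 9 receptors (vertical axis, both panels) against the mean of 11 monocyte and macrophage markers (left) and of 10 T cell markers (right), 1 point per array, triangles for 21-week mice. Colours mark genotype and time. KO arrays at 0 h run from -3.57 to -2.55 for the receptors and from -0.04 to 0.36 for the macrophage markers. The 21-week KO array at 3 h, at -3.37 for the receptors, lies within that receptor range. On the macrophage axis, KO arrays at 3 h (-2.45 to -1.28) overlap WT arrays at 0 h (-2.18 to -1.56). WT arrays at 3 h lie at the bottom, from -7.15 to -6.90 and from -4.04 to -3.74.

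After 3 h of stimulation more receptors fell than rose in each genotype, and Clec4d, in WT, was the one that rose. In KO, 4 of 9 fell (Clec4a1, Clec4a3, Clec10a and Cd209a) and none rose, where 9.79% of all genes fell and 7.38% rose. In WT, 5 of 9 fell (Clec4b1, Clec4a1, Clec4a3, Clec10a and Cd209a) and 1 rose (Clec4d), where 16.6% of all genes fell and 13.3% rose. Clec4a1, Clec4a3, Clec10a and Cd209a fell in both genotypes. The median difference over the 9 receptors was -1.34 in KO and -2.83 in WT, against -0.04 in KO and -0.14 in WT over all genes, and -1.34 in KO and -0.95 in WT with bounds in place of fitted values. In KO every array at 3 h lay below every array at 0 h for 5 receptors and above for none, against 13.5% and 10.9% of all genes. In WT this was so for 5 and 2 receptors, against 39.4% and 29% of all genes. The comparison in KO lay within 1 slide, and in WT time and slide cannot be told apart. Fitted with limma on the 6 KO arrays alone, no receptor passed (5 at an unadjusted p under 0.05) and 104 of all genes did.

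Clec4a3 and Clec4a1 fell in both genotypes. Clec4a3 fell by 3.32 ± 0.50 in KO (limma, adjusted p = 0.0028), where 2 of 3 arrays at 3 h were well above background. In WT it was at least 4.72-fold lower at 3 h than at 0 h (means -9.38 and -5.28, limma, adjusted p = 0.0005). Clec4a1 fell by 2.76 ± 0.42 in KO (adjusted p = 0.0029) and by 2.83 ± 0.42 in WT (adjusted p = 0.0012). KO arrays at 3 h and WT arrays at 0 h overlapped for both genes, so that the group means ran from KO at 0 h down through WT at 0 h and KO at 3 h, which were not apart, to WT at 3 h. The Clec4b1 difference of -1.34 ± 0.50 in KO did not pass (adjusted p = 0.0944), and in WT Clec4b1 was at least 3.93-fold lower at 3 h (means -8.54 and -5.55, adjusted p = 0.0022). Its KO values at 3 h lay above its WT values at 0 h.

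Cd209a was at least 4.47-fold lower at 3 h in KO (means -8.53 and -4.41, adjusted p = 0.0027) and at least 2.08-fold lower in WT (means -9.62 and -6.46, adjusted p = 0.0044). Clec10a fell by 3.81 ± 0.83 in KO (adjusted p = 0.0133) and was at least 1.94-fold lower in WT (means -9.62 and -6.57, adjusted p = 0.0208). The Clec10a call in KO was lost without KO replicate 2 at 3 h (adjusted p = 0.0538), and that in WT without any 1 of the 6 WT arrays (adjusted p up to 0.0628). The calls of Clec4a1, Clec4a3 and Cd209a in both genotypes and of Clec4b1 and Clec4d in WT held in all 12 fits that left out 1 array.

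Clec4d was the receptor that rose, in WT. In KO its difference of 1.39 ± 0.71 did not pass (adjusted p = 0.206), and the arrays of both times overlapped. In WT it was at least 5.26-fold higher at 3 h (means -4.87 and -8.15, adjusted p = 0.0074), with 3 of 3 arrays well above background at 3 h and 0 of 3 at 0 h. Clec4e had differences of 2.10 ± 0.99 in KO and 1.88 ± 0.99 in WT, which did not pass (adjusted p = 0.173 and 0.183). Without both 21-week arrays the Clec4e difference in WT passed (1.88 ± 0.50, limma, adjusted p = 0.0138), since the spread is shared by all groups. The receptors called were then 4 of 9 in KO and 7 of 9 in WT, where 46.2% and 55.8% of all genes were called. Clec4n had -0.20 ± 0.37 in KO and -0.67 ± 0.37 in WT and did not pass (adjusted p = 0.756 and 0.196). Clec7a had -0.08 ± 0.55 in KO and 0.41 ± 0.55 in WT and did not pass either (adjusted p = 0.943 and 0.614).

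**Figure D4:**
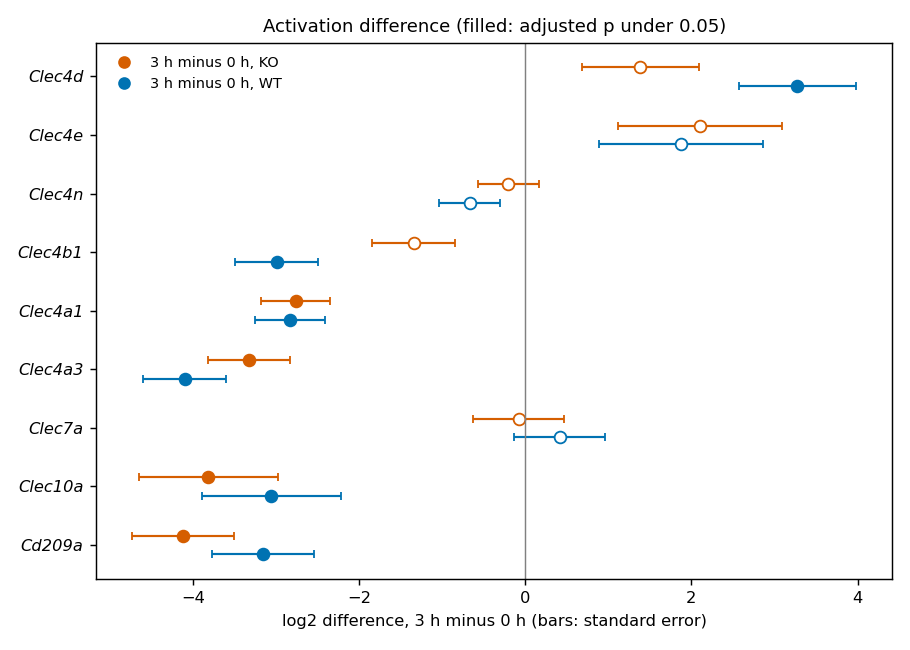
Log2 difference 3 h minus 0 h (horizontal axis) of each tested receptor in KO and in WT, with bars of 1 standard error. Filled points have an adjusted p under 0.05. Clec4d in WT is the only filled point to the right of 0, and 4 points in KO and 5 in WT are filled to its left.

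None of the 9 receptors differed between genotypes in its activation effect by the interaction test (limma, adjusted p under 0.05), as for 0% of all genes in either direction. At an unadjusted p under 0.05, Clec4b1 alone would pass, with a KO-minus-WT difference of effects of 1.65 ± 0.71. The next was Clec4d, with -1.89 ± 1.00 (unadjusted p = 0.0883, adjusted p = 1.00). A call in 1 genotype and not in the other, as for Clec4d and Clec4b1, is therefore not shown to be a difference between them.

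**Figure D5:**
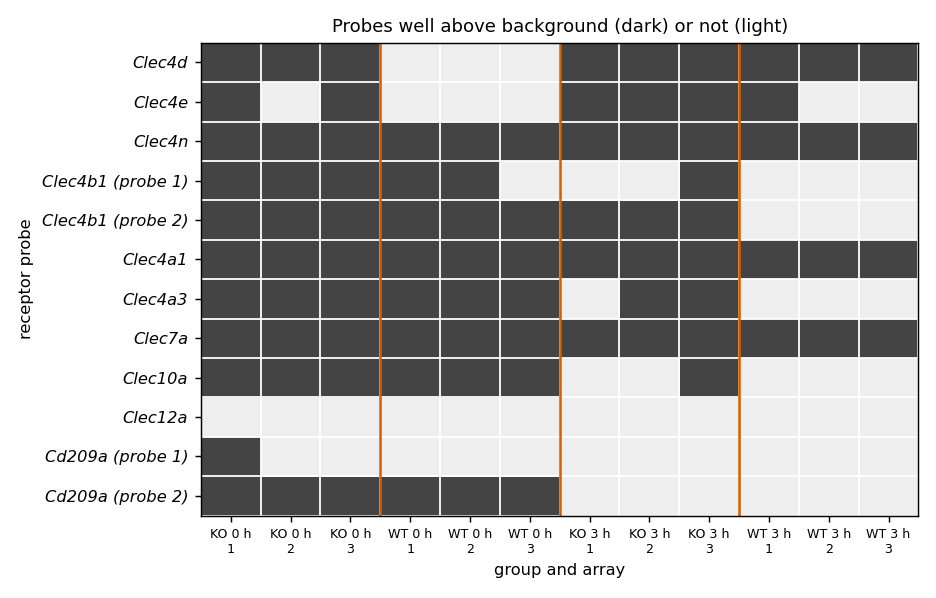
Detection of the 12 receptor probes (rows) on the 12 arrays (columns), dark where the probe was well above background. Clec4b1 probe 1 is the one at position 289 and probe 2 the one at position 198, and Cd209a probe 1 is the one at position 289. Clec4n, Clec4a1 and Clec7a are dark on all 12 arrays and Clec12a on none.

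Fcer1g and Tyrobp, adaptor chains of such receptors, rose in KO at both times. Of 18 genes of C-type lectin signalling, 3 rose and none fell in KO at 0 h, and 2 rose and none fell at 3 h, with medians of -0.01 and 0.17. Fcer1g, which encodes FcRγ, had 1.79, 2.13 and 2.70 in KO at 0 h against 0.00, 0.36 and -0.26 in WT, and rose by 2.17 ± 0.39 at 0 h and 2.38 ± 0.39 at 3 h (adjusted p = 0.0229 and 0.0156). Tyrobp, the DAP12 adaptor, rose by 2.19 ± 0.38 and 2.26 ± 0.38 (adjusted p = 0.0205 and 0.0184). Lyn, a Src-family kinase, rose by 2.18 ± 0.29 at 0 h (adjusted p = 0.0065). With stimulation, 5 of 18 fell and 2 rose in KO, and 7 fell and 3 rose in WT. Ptpn6, the phosphatase SHP-1, fell by 1.38 ± 0.26 in KO and by 2.09 ± 0.26 in WT, and Bcl10, the partner of Card9, rose by 1.33 ± 0.20 in KO and 1.24 ± 0.20 in WT. With both 21-week arrays left out, 3 rose and 1 fell in KO at 0 h, and with stimulation 7 fell in KO and 9 in WT. Of all genes, that fit called 6.63% at 0 h, and 46.2% in KO and 55.8% in WT with stimulation. Most of these genes also work downstream of antigen receptors in lymphocytes.

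Of 16 genes known as targets of these receptors in myeloid cells, 10 were tested, and Il23a, Il12b, Cxcl1, Cxcl2 and Ptgs2 were not well above background on any array. In KO against WT, 2 rose and none fell at each time, with medians of 0.65 at 0 h and 0.88 at 3 h. Il1b, which encodes an inflammatory cytokine, had -3.42, -4.50 and -3.81 in KO at 0 h against -7.66, -6.54 and -6.63 in WT, a rise of 3.03 ± 0.45 (adjusted p = 0.0103), and it rose by 2.79 ± 0.45 at 3 h (adjusted p = 0.0146). Ccl2, a monocyte-attracting chemokine, rose by 2.09 ± 0.23 at 3 h (limma, adjusted p = 0.0026). At 0 h, with 1 of 3 KO and 0 of 3 WT arrays well above background, it was at least 1.22-fold higher in KO. Ccl2 entered the tests only through KO at 3 h, the group where it was brightest, so its part in the counts of this list is a description. With stimulation 5 rose in KO and 4 in WT and none fell. Il10, which encodes a regulatory cytokine, rose by 4.19 ± 0.29 in KO and 3.01 ± 0.29 in WT. Leaving out both 21-week arrays, 4 rose in KO at 0 h and 3 at 3 h, and with stimulation 4 rose in KO and 6 in WT. That fit called 6.63% of all genes at 0 h and 1.98% at 3 h. With stimulation it called 46.2% in KO and 55.8% in WT.

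Clec1b, Mrc1 and Cd302 were the other lectins of myeloid cells that rose in KO. Of 25 such genes, 7 were tested and 13 were not well above background on any array. In KO, 3 rose and none fell at each time, namely Clec1b (2.63 ± 0.32 and 2.96 ± 0.32), a platelet and myeloid receptor, Mrc1 (2.22 ± 0.32 and 2.88 ± 0.32), the macrophage mannose receptor, and Cd302 (2.11 ± 0.34 at 0 h, and at least 5.87-fold higher at 3 h). Clec9a, a dendritic cell receptor for dead cells, was at least 7.51-fold higher in KO at 0 h (means -4.33 and -7.25) and missed the threshold (limma, adjusted p = 0.0529). It passed without both 21-week arrays (2.49 ± 0.56, limma, adjusted p = 0.041), which made the count 4, where 6.63% of all genes were called. Clec9a entered the tests only through KO at 0 h, the group where it was brightest, so its part in the counts of this list is a description. With stimulation 4 of 7 fell in KO and 5 in WT, where 1 of the 5, Clec9a, was not well above background at either time, and Ly75, an uptake receptor of dendritic cells, rose in WT by 1.64 ± 0.44 (adjusted p = 0.0196). Mrc1 fell by 2.55 ± 0.32 in KO, and in WT it fell by 3.21 ± 0.32. Of 11 transcription factors of myeloid cells, 2 rose in KO at 0 h (Zeb2 and Batf3) and 3 at 3 h, Zeb2 and Batf3 among them, and none fell. Batf3, a factor of dendritic cells that T cells also use, rose by 2.62 ± 0.45 at 0 h and 2.87 ± 0.45 at 3 h (adjusted p = 0.0199 and 0.0127), and with stimulation fell by 1.88 ± 0.45 in KO and by 2.13 ± 0.45 in WT. Of the 11 factors, 1 rose and 2 fell with stimulation in KO, and 2 rose and 3 fell in WT. When both 21-week arrays were left out, 1 factor rose in KO at 3 h, where 1.98% of all genes were called. With stimulation 3 then rose and 3 fell in KO and 3 rose and 4 fell in WT, against 46.2% and 55.8% of all genes called.

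Among the non-member genes whose values followed the mean of the 9 receptors most closely over the 12 arrays were App (Pearson r = 0.990), Itgax (0.985), Dock5 (0.982), Fes (0.980), Pld4 (0.979), Cebpd (0.978), Batf3 (0.977), Igsf6 (0.976) and Pla2g4a (0.976). Over the 6 KO arrays they were 1700071A11Rik, Aldh2, Cenpi, Abcd3, Uchl4, Ctsh, Appl2, Hoxb4, App and 2810427A07Rik, with r from 0.992 to 0.998. App was in both lists. The 9 receptors did not share 1 profile, and Clec4a3 had r = 0.985 with Clec4a1 but 0.009 with Clec4d. With the mean of the monocyte and macrophage markers, r was 0.13 for Clec4d and 0.23 for Clec4e. It was 0.63 to 0.98 for the other receptors. The receptor mean had r = 0.930 with that marker mean and 0.955 with the mean of the dendritic cell markers. These values describe 12 arrays in 4 groups that share animals and slides, and no test was made of them.

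C3ar1 and other named genes beside the cluster did not pass the test. Beside the 6 receptor genes, within 200 kb on either side, C3ar1, the receptor of a complement fragment, had differences of 1.86 at 0 h and 1.82 at 3 h in KO against WT, which did not pass (limma, adjusted p = 0.185 and 0.287 over all probes). C3ar1 was well above background on 3 KO arrays and 1 WT array at 0 h and on no array at 3 h. Its difference at 3 h is therefore one between background values. Necap1 had a difference of 0.16 at 0 h (adjusted p = 0.68) and Foxj2 one of 0.58 (adjusted p = 0.392).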

How the data were processed

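Spots of 12 Agilent arrays with 1 dye were scanned, and the deposited scanner files give a background-subtracted intensity per spot made by Feature Extraction (10.7.3.1, per the file headers; version 11, per the submitters' processing notes). The authors also deposited a table of log2 values, for which the submitters' processing notes name Partek; how it was normalized is not given in the sources here, and all its columns have a median of 3.89. Here, control and outlier-flagged spots were left out, spots of a probe were averaged, and each array's 75th percentile, among the 19799 probes detected on every array, was subtracted on the log2 scale. A probe entered the test when some group had it well above background on all 3 of its arrays (26261 probes), and the brightest such probe stood for its gene (18545 genes). The 4 group means were fitted with limma 3.58.1 in R 4.3.3 (with data.table, version 1.17.8), two-sided, with Benjamini-Hochberg adjustment over all genes and 8 residual degrees of freedom. The fit was tested on simulated data. A call is an adjusted p under 0.05.

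Groups came from the sample labels. Nothing says that arrays of a group came from separate animals, so p-values measure only the spread between arrays, whose number limits the precision. The labels give 20 ng of RNA for the first sample at 0 h, of unstated genotype, and 40 ng for the others. No probe value was saturated, and 515 probes lacked a value on at least 1 array and were not used. Probe names came from RefSeq by accession for 27503 probes, by symbol for 3554 and by synonym for 404, and from the file for 24220. The receptors and all gene lists (signalling, targets, other myeloid and lymphoid lectins, transcription factors, and cell type markers) were chosen with earlier results of these data known. From each list up to 4 called genes with the largest moderated statistic are eligible to be named, beside all 10 receptors and Cd83. Alternatives changed the normalization, background correction, source of values, filter, probe rule and arrays in the fit. Some genes that the naming rule picks are not reported here.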

Additional observations from a re-analysis of the deposited data

Results flagged for a closer look

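The Cd209a probe at position 289, which was too dim to be tested, was well above background on KO replicate 1 at 0 h and on no other array. Its normalized log2 signal there was -7.22. Detection on at least 1 of the 6 KO arrays and on no WT array was a pattern of 10.5% of all probes. KO replicate 2 at 3 h had a value of -7.09 and was not counted as well above background there. The other Cd209a probe was well above background on all 3 KO and all 3 WT arrays at 0 h. With 3 arrays in each group, no array was tested as an outlier.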

How the results depend on the processing

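No paired analysis was possible because the labels give no replicate numbers. The numbers used here only name arrays, and age ties at most the 1 KO array of 21 weeks at 0 h to that at 3 h. Leaving out 1 array at a time gave 0 to 8 receptors called for KO against WT at 0 h, 3 to 5 at 3 h, 3 to 5 for stimulation in KO, 5 to 7 in WT and 0 for the interaction. In these fits 0.437% to 5.91% of all genes were called at 0 h and 0.701% to 3.03% at 3 h. For stimulation the share was 9.71% to 37.2% in KO and 19.6% to 41.3% in WT. With the groups compared fitted alone, 3 were called at 0 h, 0 at 3 h and 0 for stimulation in KO, which is also the KO slide alone. Restricted to probes well above background on all 12 arrays, which left 3 receptors, 3 were called at each time and 1 for stimulation in each genotype. The shares of all genes called were 1.5% at 0 h, 1.07% at 3 h, 19.1% for stimulation in KO and 33.1% in WT. With normexp, 1 was called at 3 h, 2 for stimulation in KO and 1 in WT, where 1.07%, 16.3% and 28.7% of all genes were called. Quantile normalization, no shift and the deposited table each gave 3 at 3 h. Over all genes, KO against WT at 3 h gave 268 calls, 118 without a shift and 5075 without the filter on dim probes. Signs turned in differences that passed no test, nearly all interactions. With normexp the interaction was 0.055 for Clec4d, -0.067 for Clec4b1, -0.58 for Clec4a1, -0.66 for Clec4a3 and -0.24 for Mrc1. That of Clec4a1 was also -0.14 with quantile normalization, -0.31 with no shift, -0.16 with the deposited table and -0.46 without both 21-week arrays, and from -0.43 to 0.58 with 1 array left out (-0.07, -0.43 and -0.03 where it turned). That of Clec4e was -0.15 with no shift and -0.37 without both 21-week arrays, and from -1.004 to 1.16 with 1 array left out (-0.26, -1.004 and -0.24 where it turned). Stimulation in KO ran from -0.51 to 0.13 for Clec4n and from -0.64 to 0.38 for Clec7a with 1 array left out (turned at 0.13, and at 0.03, 0.38 and 0.38). Fewer testable genes or arrays are part of the restricted fits, and otherwise the cause was not tested. Signal over background limits Clec12a, both Cd209a probes at 3 h, and every bound.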

Other observations

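Klrg1, an inhibitory lectin of effector lymphocytes, fell in KO at both times, with -1.75, -2.19 and -3.64 in KO at 0 h against 1.33, 0.80 and 1.42 in WT. At 3 h it had -2.17, -2.81 and -5.37 in KO against 0.47, -0.02 and 0.46 in WT. The log2 differences were -3.71 ± 0.74 and -3.75 ± 0.74 (limma, adjusted p = 0.0333 and 0.0386), and the 21-week array was the lowest at each time. Of 14 lymphoid C-type lectins tested, of 18 listed, Klrg1 was the only one called between genotypes. With stimulation, 1 rose and 4 fell in KO, and 1 rose and 5 fell in WT, where 17.2% and 29.9% of all genes were called. Without both 21-week arrays 8 fell in KO and 9 in WT, where 46.2% and 55.8% of all genes were called. Klrb1c and Klrb1a, receptors of NK cells, were not well above background on any array at 3 h. Klrb1c was at least 6.00-fold lower at 3 h than at 0 h in KO (means -7.88 and -3.99) and at least 5.51-fold lower in WT (means -8.80 and -5.06; limma, adjusted p = 0.0023 and 0.0012). Klrb1a was at least 4.06-fold lower in KO (means -7.91 and -4.55) and at least 3.75-fold lower in WT (means -8.71 and -5.61; limma, adjusted p = 0.0032 and 0.0024). Cd72, a B cell co-receptor, had differences of -1.33 in KO and -1.66 in WT.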
